A study of Homo sapiens with 17 samples.

Results

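Transcripts of 9 immediate early genes were examined in HEK-293T cells, a human embryonic kidney line, with and without a low dose of emetine. The genes were EGR1, EGR2 and EGR3, IER2, IER3, IER5 and IER5L, NR4A1 and SRF. They were picked by gene symbol from the 19222 genes with reads in the 1 h table and looked up by symbol among the 9982 genes of the 2 h tables. Emetine binds the ribosome and blocks translation elongation. In the 1 h experiment, 3 untreated libraries (UT) and 3 libraries from cells with 1.8 µM emetine (EL) were made from cells given 500 µM 4-thiouridine (s4U) for the same hour. A further UT and a further EL library were made without s4U. The 2 h experiment held 3 untreated libraries, 3 with 1.8 µM and 3 with 240 µM emetine, each with 250 µM s4U. The cells of all groups were of 1 line, and the labels name no engineered allele. Nothing in the labels says that replicates came from separate cultures, so p-values measure only the spread between these libraries.

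Immediate early genes are transcribed within minutes of a stimulus from factors that the cell already holds, and their mRNAs are typically short-lived. Signals that pass through MAP kinases act on SRF, which binds the CArG box of target promoters together with ternary complex factors such as ELK1, while its MRTF cofactors respond to actin. The EGR proteins are zinc finger transcription factors, NR4A1 is an orphan nuclear receptor, and the IER genes encode small proteins named for their immediate early response. Emetine was given here together with s4U, which is built into new RNA and read as T-to-C conversions after nucleoside recoding. Reads made during the hour (labeled) can thereby be told from reads of older RNA (unlabeled).

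The 8 libraries of the 1 h experiment ranged from 27416189 to 48852046 reads. A single gene was assigned to 81.1% to 82.3% of them, and spike-in reads made up 0.304% to 0.728%. Emetine replicate 3 stood apart in level. Over 11514 genes, its deviations from the group mean had an SD of 0.272 on the log2 scale against 0.101 to 0.165 in the other 5 libraries with s4U, and relative to the mean of the 3 EL libraries they correlated with transcript length (Spearman's rho 0.754 across genes, which share their library and are not independent). Main results below are therefore given with and without it. The 8 markers of the HEK-293T line summed to 1011 to 1139 CPM (normalized counts scaled to library size) in UT and 874 to 1001 CPM in EL, and none of the 8 passed the test of level. Of 6 markers of other cell types, 3 had no read, and COL1A1 was the only one of the others with more than 21 reads in all 8 libraries, at 19.4 to 28.1 CPM.

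Several members share a compact gene structure that their choice by name did not use. In the annotation of GRCh38, the build to which the reads were mapped, 7 of the 9 have 2 or fewer exons in their canonical transcript, against 8.65% of protein-coding genes, and IER5 (chr1:181088700-181092900) and IER5L (chr9:129175552-129178261) have 1 exon. NR4A1 (chr12:52051442-52059503) and SRF (chr6:43171269-43181506) have 7 exons each. Canonical transcripts run from 1237 bases for IER3 (chr6:30743199-30744547) to 4514 bases for EGR3. The remaining members are EGR1 (chr5:138465479-138469303), EGR2 (chr10:62811996-62816366) and IER2 (chr19:13150411-13154911).

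The promoters that hold a CArG box, the site known to bind SRF, are shown because EGR1, a gene that rose, and SRF, which did not pass the test, both carry a pair of them. Promoter sequences of RefSeq (GRCh38.p14) were at hand for 7 of the 9 genes as 11 windows, each reaching from 250 bases before to 50 after a transcript start. A full CArG box, searched on both strands, lay in 3 of these 11 windows (1 each of EGR1, EGR2 and SRF) and in 1.293% of all 35116 windows. No match was found in the windows of IER2, IER5, IER5L and NR4A1. The NR4A1 windows, chr12:52022582-52022881 and chr12:52037465-52037764, lie upstream of its canonical transcript (chr12:52051442-52059503), whose own start was not searched. The boxes of EGR1 begin 105 and 83 bases before the start, those of SRF 30 and 10 bases before the start of 1 of its 2 windows, and that of EGR2 71 bases before the start of 1 of its 3 windows. The 250 bases before each start follow, 5′ to 3′, with the CArG boxes in capitals.
EGR1 promoter, chr5:138465229-138465478, strand plus: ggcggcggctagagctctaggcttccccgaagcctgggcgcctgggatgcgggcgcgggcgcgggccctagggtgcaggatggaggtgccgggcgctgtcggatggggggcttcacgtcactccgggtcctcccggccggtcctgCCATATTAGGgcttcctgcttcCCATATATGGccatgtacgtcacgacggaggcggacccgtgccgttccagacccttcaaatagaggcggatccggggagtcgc
SRF promoter, chr6:43171019-43171268, strand plus: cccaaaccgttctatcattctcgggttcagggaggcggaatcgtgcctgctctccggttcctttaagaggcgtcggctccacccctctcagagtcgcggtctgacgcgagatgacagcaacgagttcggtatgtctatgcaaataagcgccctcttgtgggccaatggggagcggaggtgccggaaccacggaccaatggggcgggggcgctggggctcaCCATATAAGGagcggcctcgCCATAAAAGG
EGR2 promoter, chr10:62816367-62816616, strand minus: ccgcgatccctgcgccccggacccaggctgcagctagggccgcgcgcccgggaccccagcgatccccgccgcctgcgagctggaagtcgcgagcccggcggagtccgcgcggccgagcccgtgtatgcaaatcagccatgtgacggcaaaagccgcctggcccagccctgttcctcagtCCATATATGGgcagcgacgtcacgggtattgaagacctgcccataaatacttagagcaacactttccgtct

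AU-rich elements built of the pentamer ATTTA mark many short-lived mRNAs, and proteins such as ZFP36 bind them there. IER5 holds 10 of these pentamers in its 3′ UTR and IER3 holds 6, whereas IER2 holds 0. At least 3 were present in 6 of the 9 genes, against 44.6% of 16263 genes with a 3′ UTR. This count was not adjusted for 3′ UTR length. Per kilobase of 3′ UTR the median over these genes was 1.62. IER3 (8.14), NR4A1 (5.37), IER5 (3.32) and IER5L (2.33) lay above it, and EGR3 (1.07) and SRF (1.295) below it. The densest windows of IER5 and IER3 are shown with the pentamers in capitals, those of IER5 overlapping by a base, and that of EGR1, with 1 pentamer in its whole 3′ UTR, stands beside them for comparison.
IER5 3′ UTR window, chr1:181092453-181092481, strand plus: ttATTTATTTATTTATTTAattataaaaa
IER3 3′ UTR window, chr6:30743643-30743671, strand minus: atATTTAtatgtATTTAtgtacgtcctcc
EGR1 3′ UTR window, chr5:138469074-138469102, strand plus: aaATTTAtaaatatattcaggagttggaa

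In untreated cells the 9 transcripts spanned a wide range of levels per length. SRF was the most abundant at 28.7 CPM per kilobase of transcript (27.1 to 30.1 over 3 libraries). IER5 and IER2 came next at 13.1 and 12.9 CPM per kilobase, and their ranges overlapped, as did those of NR4A1 (5.64) and IER3 (4.47). IER5L (1.40) and EGR1 (0.842) followed, each apart from its neighbours. EGR2 (0.0781) and EGR3 (0.0388) were lowest and their ranges overlapped, with 17 and 14 reads in the 3 untreated libraries together. These 2 genes held no more than 100 reads over the 6 libraries with s4U and were not tested across all genes.

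After 1 h of emetine, EGR1 and IER2 rose, and the other 5 tested members did not pass the test. EGR1 was 3.24-fold and IER2 1.92-fold higher in EL, whereas SRF, the factor that acts on immediate early promoters, stood at 0.906-fold of its untreated level. Thus 2 of the 7 tested members were called higher (edgeR quasi-likelihood test, adjusted p under 0.05), against 2.64% of all 13776 genes, and 0 were called lower, against 0.0436%. In bulk libraries, a change in the number of cells that hold a transcript and a change in its amount per cell cannot be told apart. Without emetine replicate 3, 4 of the 7 were called higher, against 9.91% of all genes, and 0 lower, against 3.83%.

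**Figure D1:**
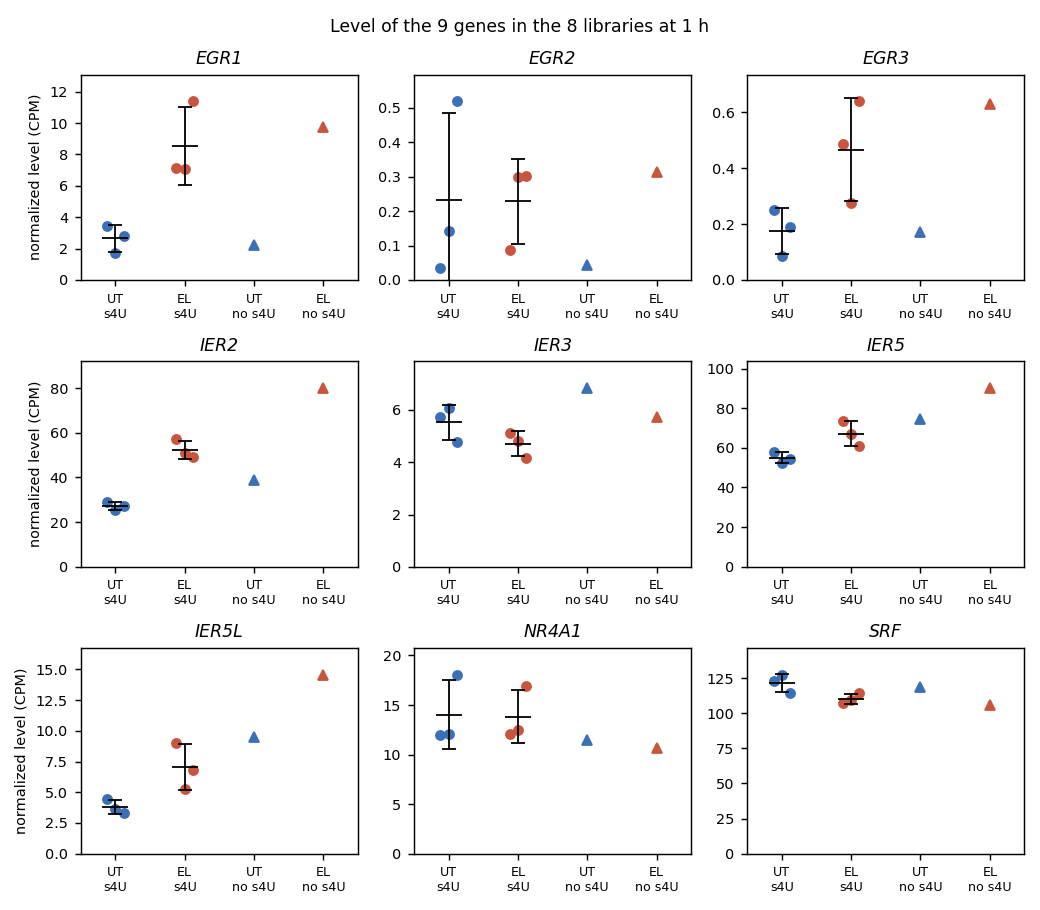
Normalized level (CPM, linear axes that differ between panels) of each of the 9 genes in the 8 libraries at 1 h. Dots are libraries with s4U, triangles libraries without it, blue untreated and red emetine, and black bars give the mean and SD of 3 libraries. The EL dots of EGR1, EGR3, IER2, IER5 and IER5L lie above the UT dots, those of SRF lie below them, and those of EGR2, IER3 and NR4A1 overlap with them.

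EGR1 encodes the best-studied EGR factor. Its levels were 3.41, 1.69 and 2.83 CPM in UT replicates 1 to 3 and 7.14, 7.04 and 11.4 CPM in EL replicates 1 to 3. All EL libraries were above all UT libraries, with the highest value in emetine replicate 3. The log2 fold change was 1.70 ± 0.29 (SE, n = 3 and 3 libraries, edgeR adjusted p = 0.0227). It was 1.45 without emetine replicate 3 (edgeR adjusted p = 0.000741). Leaving out untreated replicate 1, 2 or 3 ended the call (edgeR adjusted p = 0.0890, 0.111 and 0.115), and over all 14 alternatives the adjusted p ran from 2.0e-06 to 0.115.

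EGR2 and EGR3 (the latter at chr8:22687659-22693480), close relatives of EGR1, were near the lower limit of detection. EGR3 had 7, 3 and 4 reads in UT and 17, 11 and 17 reads in EL, or 0.175 ± 0.083 and 0.466 ± 0.183 CPM (mean ± SD, n = 3 each). The groups did not overlap, and the exact two-sided permutation test gave p = 0.10, the smallest p that 3 against 3 libraries allow. EGR2 had 1, 5 and 11 reads in UT and 3, 12 and 8 in EL, and the ranges overlapped (exact two-sided permutation p = 1). A change in EGR2 was not detectable at this depth.

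IER2, a short nuclear protein that acts in transcription, gave the smallest adjusted p of the members. Its levels were 29.1, 25.2 and 27.4 CPM in UT and 57.0, 50.8 and 49.1 CPM in EL. The spread within each group was small beside the distance between them, with SDs of 1.92 and 4.16 CPM. The log2 fold change was 0.94 ± 0.10 (SE, n = 3 and 3, edgeR adjusted p = 0.00551), and 0.99 without emetine replicate 3 (edgeR adjusted p = 3.6e-06). The call was lost when untreated replicate 1, 2 or 3 was left out (edgeR adjusted p = 0.0687, 0.0699 and 0.0585) and with spike-in scaling, and the adjusted p ran from 6.8e-12 to 0.0743 over 14 alternatives.

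IER5, an inducible regulator known to act on HSF1 with the phosphatase PP2A, and its paralogue IER5L were higher in every EL library than in any UT library, but neither passed the test over all 6 libraries. IER5 measured 57.9, 52.5 and 54.3 CPM in UT and 73.5, 66.9 and 61.1 CPM in EL. Its log2 difference of 0.29 ± 0.10 had an edgeR adjusted p of 0.160. Without emetine replicate 3 the difference was 0.36 and passed (edgeR adjusted p = 0.00357). Over 14 alternatives the adjusted p of IER5 ran from 0.00357 to 0.410.

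IER5L measured 4.45, 3.61 and 3.30 CPM in UT and 9.02, 5.29 and 6.80 CPM in EL. Emetine replicate 1 was highest, and the SD rose from 0.592 to 1.87 CPM. The log2 difference was 0.89 ± 0.22 (SE, n = 3 and 3, edgeR adjusted p = 0.0799). Over the same 6 libraries it passed with DESeq2 (DESeq2 adjusted p = 0.0103), with no count filter (edgeR adjusted p = 0.0455) and with the length trend removed (edgeR adjusted p = 0.0346), and it also passed in the fit of all 8 libraries with s4U as a term (edgeR adjusted p = 0.0321). It passed without emetine replicate 3 (0.91, edgeR adjusted p = 0.0130) and without emetine replicate 2 (1.06, edgeR adjusted p = 0.0445), and the adjusted p ran from 0.0103 to 0.298 over 14 alternatives.

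IER3, an inhibitor of cell death, gave values of 5.74, 6.08 and 4.76 CPM in UT and 5.11, 4.82 and 4.17 CPM in EL. The groups overlapped, and the log2 difference was −0.24 ± 0.17 (edgeR adjusted p = 0.399). Without emetine replicate 3 it was −0.16 (edgeR adjusted p = 0.545). NR4A1 measured 11.9, 12.1 and 18.0 CPM in UT and 12.05, 12.5 and 16.9 CPM in EL. Replicate 3 was the high library in both groups, and the log2 difference was −0.02 ± 0.20 (edgeR adjusted p = 0.965), its sign changing with the setting. Without emetine replicate 3 the difference was −0.17 (edgeR adjusted p = 0.490).

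SRF was the only tested member with every EL library below every UT library. Its levels were 122.98, 127.2 and 114.5 CPM in UT and 107.2, 109.1 and 114.3 CPM in EL, so that untreated and emetine replicates 3 nearly met. The log2 difference was −0.14 ± 0.08 (edgeR adjusted p = 0.326). Without emetine replicate 3 it was −0.17 (edgeR adjusted p = 0.0876). It was −0.25 and passed when a smooth trend on transcript length was removed from each library (edgeR adjusted p = 0.0367), and the adjusted p ran from 0.0367 to 0.605 over 14 alternatives. Groups did not overlap for 4 tested members on the higher side and 1 on the lower side, against 19.6% and 15.2% of all tested genes.

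Scaling to spike-in reads shifted the median log2 fold change of all genes to 0.71. Relative to that median, EGR1 stood at 1.73, IER2 at 0.94, IER5L at 0.95, IER5 at 0.28, NR4A1 at −0.01, SRF at −0.18 and IER3 at −0.29. Before the shift was taken off, the log2 differences of IER3, NR4A1 and SRF were above 0 on this scale. The share of spike-in reads was 0.304%, 0.666% and 0.408% in EL replicates 1 to 3, and its part in the result was not tested.

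The 2 libraries without s4U give the same comparison without labeling. EGR1 stood at 2.21 CPM in the UT and 9.72 CPM in the EL library without s4U, which was 4.41-fold. IER2 went from 38.8 to 79.9 CPM (2.06-fold), IER5 from 74.6 to 90.1 CPM (1.21-fold) and IER5L from 9.50 to 14.5 CPM (1.53-fold). EGR2 had 1 read in the UT library and 10 in the EL library, and EGR3 had 4 and 20. The direction was thus that of the libraries with s4U for each of EGR1, EGR3, IER2, IER5 and IER5L, with no replicate of either library.

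IER3 read 6.83 CPM without emetine and 5.73 CPM with it, NR4A1 11.5 and 10.7 CPM, and SRF 118.5 and 106.1 CPM. In an edgeR fit of all 8 libraries, which assumes that the lone libraries vary like the replicated groups, 0 of 7 tested members were called higher without s4U, against 0.0213% of 14102 genes, and 0 were called lower, against 0% of them. The smallest adjusted p was that of IER2 (log2 difference 1.04 ± 0.17, edgeR adjusted p = 0.177, unadjusted p = 0.000198), and that of EGR1 was 0.329 (log2 difference 2.14 ± 0.52).

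The difference between the response with and without s4U was tested as an interaction and was called for 0 of 14102 genes (edgeR, 597 at an unadjusted p under 0.05, 0% called in either direction). Among the members it lay between −0.44 ± 0.59 for EGR1 and 0.28 ± 0.42 for IER5L on the log2 scale, so the intervals are wide. In untreated cells, the libraries with s4U held less IER5L (log2 difference −1.32 ± 0.29), IER2 (−0.51 ± 0.14) and IER5 (−0.44 ± 0.13) than the 1 library without it. None of these passed (edgeR adjusted p = 0.9996 for each), and 0% of genes were called in either direction in this contrast (edgeR, 463 at an unadjusted p under 0.05).

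**Figure D2:**
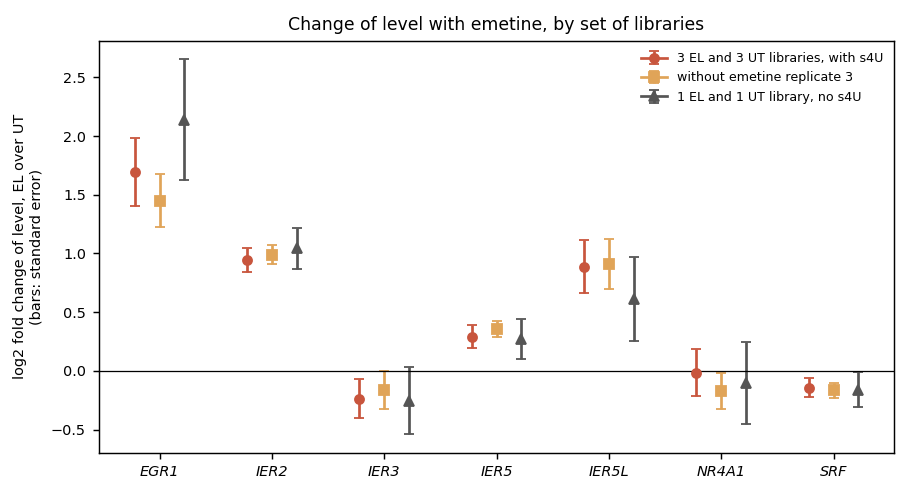
Log2 fold change of level (EL over UT, bars are standard errors) of the 7 tested members. Red circles are from 3 EL and 3 UT libraries with s4U, yellow squares leave out emetine replicate 3, and grey triangles are from the 1 EL and 1 UT library without s4U. EGR1, IER2, IER5 and IER5L lie above 0 and IER3, NR4A1 and SRF below 0 in all 3 sets, with the red circle of NR4A1 close to 0 (−0.02).

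IER3, IER5 and IER2 were among the most heavily labeled genes of untreated cells. The fraction new, the share of a gene's reads made during the hour, was estimated from the conversions in each read. In untreated cells it averaged 89.6% for IER3, 77.7% for IER5 and 66.9% for IER2, and 99.8%, 99.2% and 98.3% of the 10763 genes that reached 100 reads in every one of the libraries lay below these values. NR4A1 (29.2%) and SRF (20.4%) were lower, with 84.5% and 72.6% of genes below them. At a steady state, which was assumed and not measured, the untreated values of IER2 correspond to half-lives of 37.0 to 38.0 min, those of IER5 to 24.6 to 34.4 min, and those of SRF to 145 to 257 min. The median fraction new over the 10763 genes also differed between untreated libraries, at 9.26%, 12.35% and 14.7% in replicates 1 to 3. SRF rose in the same order, at 14.9%, 21.2% and 24.9%. IER5 was lowest in replicate 1, whereas IER3 was highest there. The part of these library differences in the half-life ranges was not tested.

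The reads themselves show the contrast. Of the 1831 IER5 reads in untreated replicate 2, 416 had no conversion, 275 had 1 and 1140 had 2 or more. Of the 2679 IER5 reads in emetine replicate 2, 1251 had none, 286 had 1 and 1142 had 2 or more. These libraries are examples and differ in depth. The share of IER5 reads with 2 or more conversions was 52.9%, 62.3% and 58.8% in UT replicates 1 to 3 and 36.2%, 42.6% and 37.4% in EL replicates 1 to 3, so the groups did not overlap. In the UT and the EL library without s4U, 0 of 1759 and 0 of 2863 IER5 reads had 2 or more, against 0.0422% and 0.0448% of the reads of all genes.

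IER5 was the 1 tested member whose fraction new was called, and it fell with emetine. Its values were 70.1%, 81.6% and 81.5% in UT and 53.0%, 56.2% and 57.3% in EL. The groups were apart by 12.8 points at their nearest, and the 95% intervals of single libraries were at most 5.49 points wide (counting error only, since reads without molecular identifiers are not independent molecules). The difference of the logit of the fraction new was −1.05 ± 0.26 (limma, n = 3 and 3, adjusted p = 0.00527). It was −1.09 without emetine replicate 3 (limma adjusted p = 0.0492). Both p-values rest on a spread pooled over genes of like fraction new, and the spread of IER5 itself barely entered them. The same holds for the fraction-new p-values of the called genes of other lists named below. Leaving out untreated replicate 2 or 3 or emetine replicate 1 or 2 ended the call (limma adjusted p = 0.0849, 0.0793, 0.109 and 0.0706), and the adjusted p ran from 0.000807 to 0.109 over 13 alternatives.

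Of 5 members tested for fraction new, 1 was called lower, against 4.83% of all genes, and 0 higher, against 0.214%. Without emetine replicate 3 the same counts were 1 and 0, against 1.9% and 0.158%. IER2 was 66.5%, 67.5% and 66.7% in UT and 59.2%, 53.6% and 62.0% in EL. Its groups did not overlap either, but the logit difference of −0.37 ± 0.25 did not pass (limma adjusted p = 0.509). The median logit difference over all genes was −0.16. Groups that did not overlap on the lower side were seen for 2 of the 5, against 16.8% of all genes, and on the higher side for 0, against 2.19%.

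IER3 spanned 86.0% to 91.8% in UT and 86.1% to 96.3% in EL, a logit difference of 0.13 ± 0.32 (limma adjusted p = 0.914) whose sign turned without emetine replicate 3. NR4A1 spanned 26.3% to 34.7% in UT and 24.5% to 31.2% in EL (−0.11 ± 0.21, limma adjusted p = 0.874). SRF spanned 14.9% to 24.9% in UT and 17.4% to 20.001% in EL (−0.09 ± 0.21, limma adjusted p = 0.903). The EL values of NR4A1 and SRF overlapped with the UT values. The UT spread of SRF ran in the order of the library medians given above, which were 10.65%, 11.04% and 10.3% in EL replicates 1 to 3. After median centring the logit difference was 0.035 for SRF and 0.012 for NR4A1, and −0.93 for IER5 (limma adjusted p = 0.00848).

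EGR1 and IER5L had fewer than 100 reads in some libraries and entered only with a minimum of 50. EGR1 was 64.9%, 83.3% and 76.5% new in UT and 88.5%, 85.1% and 91.1% new in EL. Every EL value was above every UT value, and the logit difference was 0.91 ± 0.31 (limma adjusted p = 0.132). IER5L moved the other way, at 67.7%, 91.8% and 90.0% in UT and 49.1%, 46.2% and 66.3% in EL (−1.62 ± 0.44, limma adjusted p = 0.102). Neither passed, while 0.119% of 11775 genes were called higher and 2.53% lower at this minimum. Among these 7 members, groups that did not overlap were seen for 1 on the higher side (EGR1) and 3 on the lower side (IER2, IER5 and IER5L), against 2.35% and 16.7% of all genes.

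**Figure D3:**
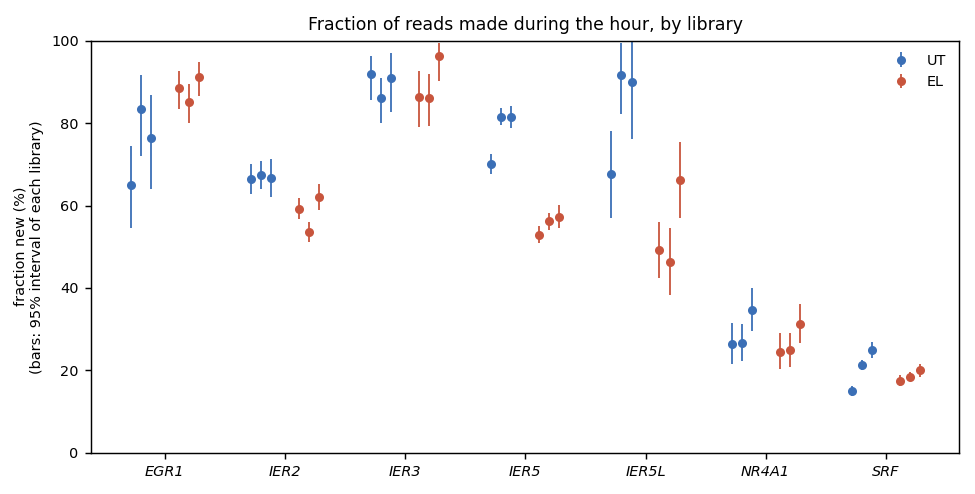
Fraction new (%, linear axis from 0 to 100) of 7 members in each library with s4U, blue untreated and red emetine, with the 95% interval of each library as bars. IER5 and IER5L lie lower in EL, EGR1 lies higher, and NR4A1 and SRF stay below 40%.

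The level of each member was next split into its labeled and its unlabeled part, that is, RNA made during and before the hour. In IER5 the unlabeled part was 17.3, 9.65 and 10.1 CPM in UT and 34.6, 29.3 and 26.1 CPM in EL. All EL values were above all UT values, and the log2 difference was 1.29 ± 0.22 (limma adjusted p = 0.00904). The labeled part of IER5 was 40.6, 42.8 and 44.3 CPM in UT and 38.9, 37.6 and 35.03 CPM in EL, with a log2 difference of −0.19 ± 0.21 (limma adjusted p = 0.799).

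IER2 was higher in both parts. Its unlabeled part was 9.75, 8.21 and 9.12 CPM in UT and 23.2, 23.6 and 18.7 CPM in EL, and it rose by 1.22 ± 0.14 on the log2 scale (limma adjusted p = 0.00179). Its labeled part was 19.3, 17.0 and 18.2 CPM in UT and 33.8, 27.2 and 30.4 CPM in EL. The EL libraries were again all above the UT libraries, but the log2 difference of 0.72 ± 0.22 did not pass (limma adjusted p = 0.0860), and passed without untreated replicate 1 (0.77, limma adjusted p = 0.00439, range over 11 alternatives 0.00439 to 0.795).

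Of the 5 members tested, 2 were called higher in unlabeled reads, against 7.28% of all genes, and 0 in labeled reads, against 0.26%. None was called lower in either part, against 0.0929% and 0.632%. Over all genes the median log2 difference was 0.043 in unlabeled and −0.14 in labeled reads. Without emetine replicate 3, the same 2 were called higher in unlabeled reads (IER2 by 1.33 and IER5 by 1.383 on the log2 scale), against 13.7%, and 0 in labeled reads, against 0.121%. None was then called lower in unlabeled or labeled reads, against 3.51% and 0.0743%. Over all 6 libraries, groups that did not overlap were seen in unlabeled reads for 2 on the higher side, against 24%, and 0 on the lower side, against 16.2%, and in labeled reads for IER2 on the higher side, against 3.32%, and IER5 on the lower side, against 11.3%. The call of IER5 in unlabeled reads was lost without untreated replicate 2 or 3 (limma adjusted p = 0.0507 and 0.0709, range over 11 alternatives 0.00266 to 0.0709).

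EGR1 and IER5L were tested only when no minimum per library was set, and not without emetine replicate 3. The labeled part of EGR1 was 2.21, 1.41 and 2.16 CPM in UT and 6.32, 5.99 and 10.4 CPM in EL, and it rose by 1.71 ± 0.26 on the log2(CPM + 0.5) scale (limma adjusted p = 1.0e-07), with 0.327% of 13773 genes called higher. This p-value, like that of labeled IER2 over all 6 libraries, rests on a spread pooled over genes of like level. The spread of EGR1 itself barely entered it, and EGR1 had only 59 and 60 reads in UT replicates 2 and 3. Its unlabeled part, 0.282 to 1.195 CPM in UT and 0.818 to 1.05 CPM in EL, differed by 0.33 ± 0.27 (limma adjusted p = 0.464). IER5L passed in the other part. Its unlabeled part was 1.43, 0.298 and 0.332 CPM in UT and 4.59, 2.85 and 2.29 CPM in EL (1.74 ± 0.35, limma adjusted p = 0.0174), with 6.87% of genes called higher, and its labeled part differed by 0.22 ± 0.27 (limma adjusted p = 0.837).

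NR4A1, SRF and IER3 passed in neither part. For SRF the unlabeled part averaged 96.9 CPM in UT and 89.6 CPM in EL, and the labeled part 24.6 and 20.6 CPM. For NR4A1 the unlabeled part averaged 9.82 and 10.0 CPM and the labeled part 4.20 and 3.79 CPM. IER3 was almost all labeled in both groups, with 4.94 CPM labeled in UT and 4.19 CPM in EL.

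**Figure D4:**
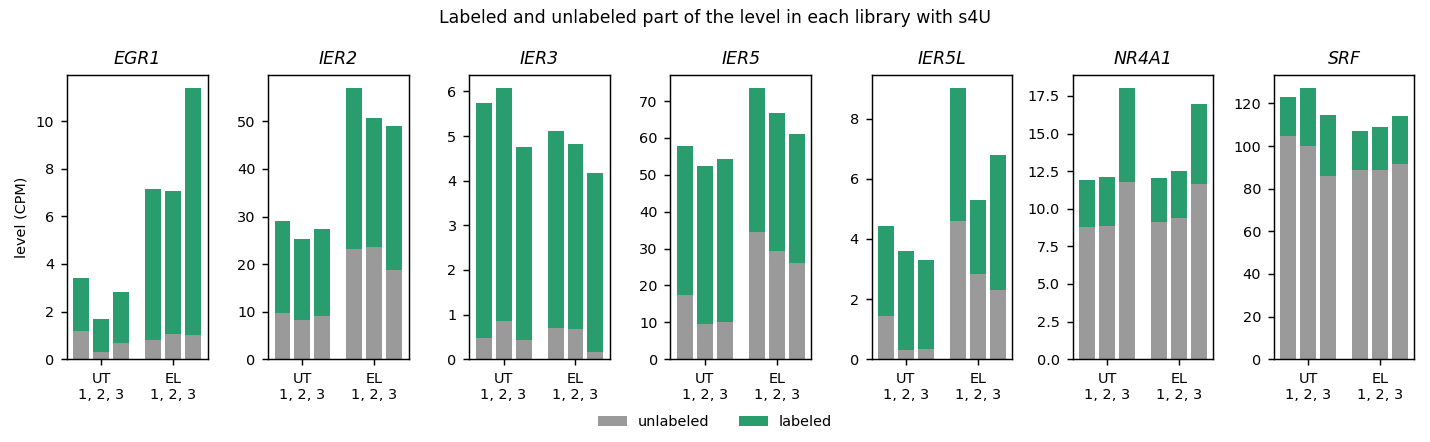
Level (CPM, bars from 0, axes differ between panels) of 7 members in UT replicates 1 to 3 and EL replicates 1 to 3 with s4U, split into unlabeled (grey) and labeled (green) parts. In IER5 the grey part is taller in EL and the green part is not, whereas in EGR1 the green part is taller in EL.

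Of 45 other immediate early genes, 42 were tested for level and 17 were called higher, against 2.64% of all genes, with a median log2 fold change of 0.58 against 0.03 over all genes and 0.29 over the 7 members. The list was chosen with earlier results of these data known, so its counts are descriptive and not an independent test. The paper already reports JUN and DUSP1 as induced by emetine in this experiment. JUN, a subunit of AP-1, rose from 121.7 ± 3.1 to 1040 ± 218 CPM (log2 fold change 3.10 ± 0.16, edgeR adjusted p = 7.9e-05). DUSP1, a phosphatase that acts on MAP kinases, rose from 39.9 to 239.6 CPM (2.59 ± 0.16, edgeR adjusted p = 0.00035), and ATF3, a stress-induced bZIP factor, from 23.0 to 86.5 CPM (1.91 ± 0.14, edgeR adjusted p = 0.000845). These are larger log2 fold changes than that of EGR1. No gene of this list was called lower, against 0.0436% of all genes. The number called higher was 24 without emetine replicate 3, while the share of all genes called higher was 9.91%.

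In fraction new, 8 of 29 tested genes of this list were called lower, against 4.83% of all genes, and 1 higher, against 0.214%. KLF6, a zinc finger factor, fell from 93.2% to 78.6% (logit difference −1.34 ± 0.28, limma adjusted p = 0.00125), TIPARP, a mono-ADP-ribosyltransferase, from 83.8% to 64.0% (−1.10 ± 0.27, limma adjusted p = 0.00511), and GADD45B, a stress-response gene, from 84.9% to 67.4% (−1.01 ± 0.27, limma adjusted p = 0.0117). JUND, an AP-1 subunit, rose from 26.9% to 63.8% (1.58 ± 0.23, limma adjusted p = 1.5e-06). Without emetine replicate 3, 1 was called lower, against 1.9% of all genes, and 1 higher, against 0.158%. In the split of reads, 10 of the 29 were called higher in labeled reads, against 0.26% of all genes, and 15 in unlabeled reads, against 7.28%. These counts were 5, against 0.121%, and 15, against 13.7%, when emetine replicate 3 was left out.

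Genes that act with the members were not called in level over the 6 libraries. Of 5 SRF cofactors and ternary complex factors, 0 were called, with MKL1 (MRTFA) at 0.42 (edgeR adjusted p = 0.0699) and ELK1 at −0.16 (edgeR adjusted p = 0.390). Of 11 tested partners and repressors of EGR and NR4A proteins, 0 were called in level and 2 in fraction new, both lower, against 4.83% of all genes. NAB2, a corepressor that binds EGR1, fell from 58.2% to 36.5% new (−0.89 ± 0.23, limma adjusted p = 0.0107), and RXRB, a nuclear receptor of the family that pairs with NR4A1, from 17.0% to 9.54% (−0.67 ± 0.21, limma adjusted p = 0.0482). Neither was called without emetine replicate 3, when 1.9% of all genes were called lower.

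Of 13 tested cytoskeletal targets of SRF and MRTF, 0 were called, with a median log2 difference of −0.20. The actin gene ACTB was at −0.35 (edgeR adjusted p = 0.184). Of 23 MAP kinase pathway genes, 0 were called in level and 0 of 22 in fraction new, and their median log2 difference was 0.0014. ZAK (MAP3K20), the kinase that senses stalled ribosomes, was at 0.04 (edgeR adjusted p = 0.874).

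Without emetine replicate 3, when 9.91% of all genes were called higher and 3.83% lower, genes of these lists were called too, and those below are named because of those values. The counts were 1 higher and 1 lower of 5 SRF cofactors and ternary complex factors, 1 higher of 11 partners and repressors, 1 lower of 23 MAP kinase pathway genes, and 1 higher and 5 lower of 13 cytoskeletal targets. MKL1 (0.33, edgeR adjusted p = 0.00453) and CREB1 (0.29, edgeR adjusted p = 0.0381) were called higher and ELK1 (−0.26, edgeR adjusted p = 0.0153) and MAPK3 (−0.22, edgeR adjusted p = 0.0329) lower. Of the cytoskeletal targets, TPM2 was called higher and TPM4, TAGLN2, FHL1, ACTB and VCL lower. The log2 differences of these lower calls lay between −0.27 and −0.18.

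**Figure D5:**
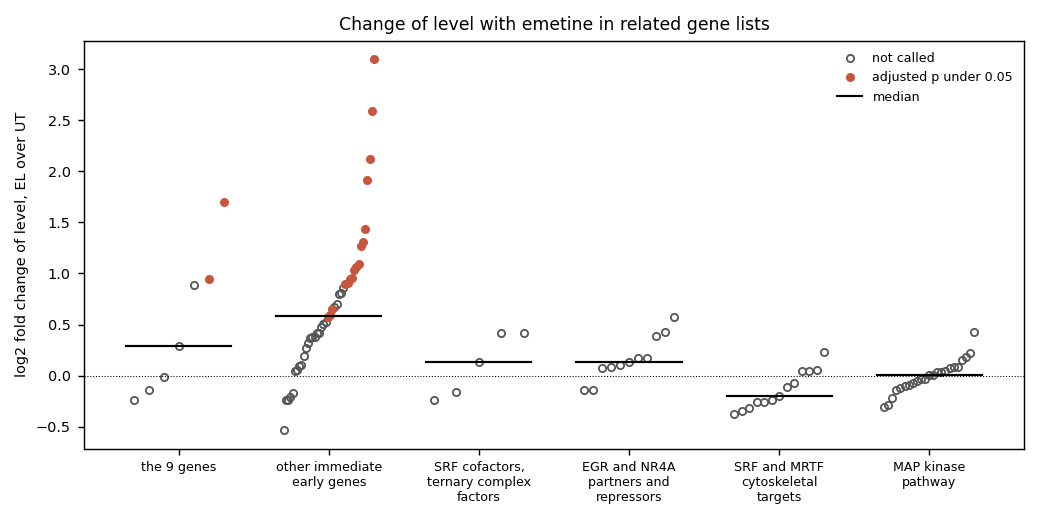
Log2 fold change of level (EL over UT, linear axis) of each tested gene in the members and 5 related lists. Filled red dots have an edgeR adjusted p under 0.05, open dots do not, and black lines are medians. Filled dots appear for 2 members and 17 other immediate early genes and in no other list.

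Over the 8 libraries of the 1 h experiment, the genes whose log2 levels followed EGR1 most closely among 14102 were SLC16A1-AS1 (Pearson's r = 0.984), NDOR1 (0.979) and CLCN6 (0.979). IER3, with the lowest log2 fold change among the members, was followed most closely by TVP23B (0.973), WDR18 (0.961) and CD27-AS1 (0.951). These correlations rest on 8 points that share depth and treatment within their groups. As group means, NDOR1 stood at 72.9 CPM in UT and 92.7 CPM in EL, and CLCN6 at 16.3 and 29.4 CPM.

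Of the 9 members, IER2, IER5 and SRF were among the genes listed for the 2 h experiment, and the other 6 were not listed. The deposited mean of normalized counts over all 2 h libraries, which mixes untreated and both doses, was 509 for IER2, 796 for IER5 and 1314 for SRF, or 241, 189 and 311 per kilobase of transcript. Of the 9982 genes listed, 33.1%, 47.9% and 64.9% had a lower mean. Per length, SRF had the highest of these 3 means, followed by IER2 and IER5. The libraries at 2 h were made with another kit, and the deposited mean is taken over all groups. No test between doses or times was therefore made, and the values at 1 h and 2 h are only set side by side.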

How the data were processed

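TL-seq reads of 8 libraries at 1 h were analyzed. Per the study's methods, the authors trimmed reads with cutadapt and aligned them to hg38 by hisat-3n, which allows T-to-C changes, and bam2bakR then tallied T positions and conversions. Values in the deposited table are whole counts of reads per gene, T content and conversion number, with no normalization. Reads on spike-in sequences, without a gene (17.1% to 18.3%) or with several genes were left out of gene totals. At 2 h, htseq-count and then DESeq2 with spike-in size factors were used by the authors. The signal values used from these deposited tables, the mean of normalized counts, were equal in both tables for all 9982 genes, and their columns of fold changes and p-values of the authors' own comparisons (1.8 µM and 240 µM emetine against untreated) were not used, nor was the table of size factors. The kinetic fits of the paper came from bakR, in whose place the mixture fit below stands.

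Counts were summed per gene and compared with edgeR 4.0.16 (R 4.3.3, TMM, quasi-likelihood test) for genes with more than 100 reads in total. The fraction new was the weight of a 2-component binomial mixture, fitted by maximum likelihood in Python (numpy, scipy) with the background rate from the library without s4U of the same treatment (0.0504% and 0.0521% of T) and a new-read rate per library (8.49% to 9.53% of T). Its logit, and log2(CPM + 0.5) of the labeled and of the unlabeled part, were tested in limma 3.58.1 (trend, robust) for genes with at least 100 reads per library, with Benjamini-Hochberg adjustment throughout. CPM used TMM factors of the 8 libraries. Tests were checked on simulated data. For level (13695 genes, 200 of them shifted by 1.5 on the log2 scale), 94% of the shifted genes were called. Of the calls in level, 7.39% were false, a share above the adjusted p threshold of 0.05. For fraction new (3000 genes, 200 shifted by 1 on the logit scale), 77.5% were called, and 1.9% of the calls were false. Whether these rates hold for genes as heavily labeled as IER2, IER3 and IER5 was not tested. Whether they hold for libraries like emetine replicate 3, which deviated with transcript length, was not tested either. With 13.3% as the common coefficient of variation (6.45% without emetine replicate 3), small changes of low genes are not resolved.

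The members and lists were chosen with earlier results of these data known. All 9 members were named, and from each list up to 3 called genes per direction with the smallest p in level and in fraction new. Genes were matched to the annotation by symbol (17147) or older symbol (1167), and 908 of 19222 were not matched. Alternatives were other scalings, filters, tests and estimators, a replicate block and leaving out each library. Replicate numbers are only names here, since deviations of same-numbered libraries correlated at 0.064, −0.013 and −0.168.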

Additional observations from a re-analysis of the deposited data

How the results depend on the processing

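Of the values of single members under the alternatives, 263 kept direction and side of the threshold, 9 newly passed, 13 no longer passed and 27 changed sign, the last for IER3, NR4A1 and SRF and, in labeled reads, IER5. Members called higher in level numbered 2, and 1 with spike-in scaling and 0 to 4 without 1 library, and 1 was called lower once the length trend was removed. Genes called higher in level numbered 363, against 60 with spike-in scaling, 75 with the replicate block, 644 over 8 libraries, 818 without the length trend, 820 with DESeq2 and 5 to 1365 without 1 library. Genes called lower numbered 6, against 0, 3, 31, 353 and 156 in the same order and 0 to 527 without 1 library.

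In fraction new, members called lower numbered 1, and 0 or 1 without 1 library. Genes called higher numbered 23, against 14 at 50 and 14 at 500 reads, 126 after median centring, 40 with the replicate block and 10 to 41 without 1 library, and those called lower 520, against 298 at 50 and 227 at 500 reads and 94 to 2524 without 1 library. In labeled reads, members called higher numbered 0, against 1 with no minimum per library and 0 to 1 without 1 library. Genes called higher numbered 28, against 45 with no minimum, 10 with spike-in scaling and 13 to 64 without 1 library, and lower 68, against 0 with spike-in scaling, 163 at 2 or more conversions and 2 to 1733 without 1 library. In unlabeled reads, 2 members were called higher, and 1 or 2 without 1 library. Genes called higher numbered 784, against 386 with spike-in scaling, 350 with the replicate block and 271 to 1470 without 1 library, and lower 10, against 0 with spike-in scaling and 4 to 378 without 1 library. Without s4U, 3 genes were called higher and 0 lower, against 6 and 1 with no count filter. The causes were not tested.

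Signs turned in level with spike-in scaling for IER3 (0.42), NR4A1 (0.70) and SRF (0.53), and for NR4A1 with the length trend removed (0.019), with a range of −0.17 to 0.20 without 1 library. In fraction new they turned for IER3 at 2 or more conversions (−0.27), with a range of −0.35 to 0.37 without 1 library, and after median centring for NR4A1 (0.012) and SRF (0.035), whose ranges without 1 library were −0.22 to 0.016 and −0.27 to 0.051. With spike-in scaling they turned in labeled reads for IER3 (0.36), IER5 (0.43), NR4A1 (0.45) and SRF (0.38) and in unlabeled reads for IER3 (0.15) and SRF (0.52). Without 1 library, values ran from −0.35 to 0.18 for NR4A1 in labeled reads, and from −0.29 to 0.15 for IER3 and −0.070 to 0.17 for NR4A1 in unlabeled reads. The replicate block ended no call of a member. Depth limits EGR2 and EGR3, which had 40 and 59 reads over 6 libraries.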
